A study of Pisaster ochraceus with 50 samples.

Results

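The 100 genes described here were the genes with the highest expression floor across dermis, tube feet and pyloric caecum of the ochre sea star Pisaster ochraceus, 100 of the 21777 genes counted. For each gene the mean CPM (counts scaled to a library total of 1e+06 gene reads) was taken over the asymptomatic Point Reyes libraries of each tissue, and genes were ranked by the lowest of these 3 means, so that a gene ranked high only if it was abundant in all 3 tissues. The members were thus chosen by their mean CPM in the asymptomatic libraries of each tissue, and their levels and tissue pattern are given as a description without a test. Size and disease were not used in the choice, beyond the use of asymptomatic animals only.

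The samples were biopsies of wild animals of unstated age. Tissue came from 17 animals of Point Reyes, 15 from McClures Beach and 2 from Lifeboat House, of which 15 were asymptomatic and 2 symptomatic for sea star wasting disease, in which animals develop lesions and disintegrate. The asymptomatic animals were labelled small, medium, large or x-large and gave 14 dermis, 13 tube feet and 15 pyloric caecum libraries. Colour ran with size in part, since all 3 small animals were orange, the medium ones 1 orange and 2 brown, the large ones 4 brown and 1 purple and the x-large ones 2 orange and 2 brown. Of the asymptomatic animals 1 large and 1 x-large were labelled as feeding and the others as not feeding, so that size class cannot be told apart fully from colour and feeding. The symptomatic group was 1 large brown animal of McClures Beach and 1 medium orange animal of Lifeboat House, neither feeding, each with 1 library per tissue, and so disease in that group cannot be told apart from 2 individual animals that also differ in site, size class and batch. A further 2 tube feet libraries from 1 animal of Friday Harbor, 1 labelled asymptomatic and 1 symptomatic, were kept out of every comparison. Gene reads ranged from 373930 to 1105416 per library, and no member had fewer than 42 reads in any library, with a median of 1523 reads. All 100 members passed the filter on low counts in every fit. The count files pair gene IDs with no names, so members are given by ID alone, no role or sequence is given for any of them, and the tissue labels could not be checked against named markers.

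In animal cells the transcripts that are abundant in every tissue generally encode the protein synthesis machinery (ribosomal proteins and elongation factors), the cytoskeleton and mitochondrial energy metabolism, and they often take a large part of a messenger RNA library. Because sequencing reads are shared out within a library, a large rise of any abundant transcript lowers the CPM of all others. The dermis is the body wall, the tube feet are the hydraulic feet, and the pyloric caecum is the digestive gland of a sea star, a secretory tissue in which a few products can dominate the transcript pool.

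The members held a large part of the gene reads in every tissue. In asymptomatic dermis they took 50.1% ± 10.3 of the gene reads (SD, n = 14), with libraries from 33.7% to 72.9%. In tube feet the share was 32.8% ± 3.69 (SD, n = 13), from 26.8% to 37.9%. In pyloric caecum it was 44.9% ± 6.52 (SD, n = 15), from 31.8% to 58.2%. Over all counted lines, most of which met no gene, the mean shares were 7.18% in dermis, 6.51% in tube feet and 11.3% in caecum. Dermis libraries spread most widely, and every tube feet library lay below the dermis median of 50.4%. In bulk tissue a lower level may reflect fewer cells of a type or less RNA per cell, and these cannot be told apart. Set beside this, the 100 genes most abundant within each tissue took 55.3% of the mean gene reads in dermis, 40.9% in tube feet and 66.2% in caecum. Of the members, 82 were among the 100 most abundant genes of dermis, 70 among those of tube feet and 60 among those of pyloric caecum, and 57 were in all 3 sets.

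Within animals, the share was higher in dermis than in tube feet in 12 of 12 animals with both tissues. It was higher in pyloric caecum than in tube feet in 11 of 13 animals, and higher in dermis than in pyloric caecum in 9 of 14. The share of an animal in 1 tissue was only weakly correlated with its share in another, with Pearson r of 0.07 between dermis and tube feet, −0.17 between pyloric caecum and tube feet and 0.14 between dermis and pyloric caecum over the same animals, given as descriptions.

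The reads were spread over the members very differently in the 3 tissues. In pyloric caecum 1 member, g13155, held 51.2% of all member reads, and the 10 most abundant members held 70.7%. In dermis the most abundant member by mean, g15, held 9.51% of member reads and the top 10 held 37.3%. In tube feet g15 held 7.42% and the top 10 held 31.2%. With g13155 left out of both the members and the gene reads, the share in pyloric caecum was 28.5% ± 2.99 (SD, n = 15), lower than the shares of dermis and tube feet.

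**Figure D1:**
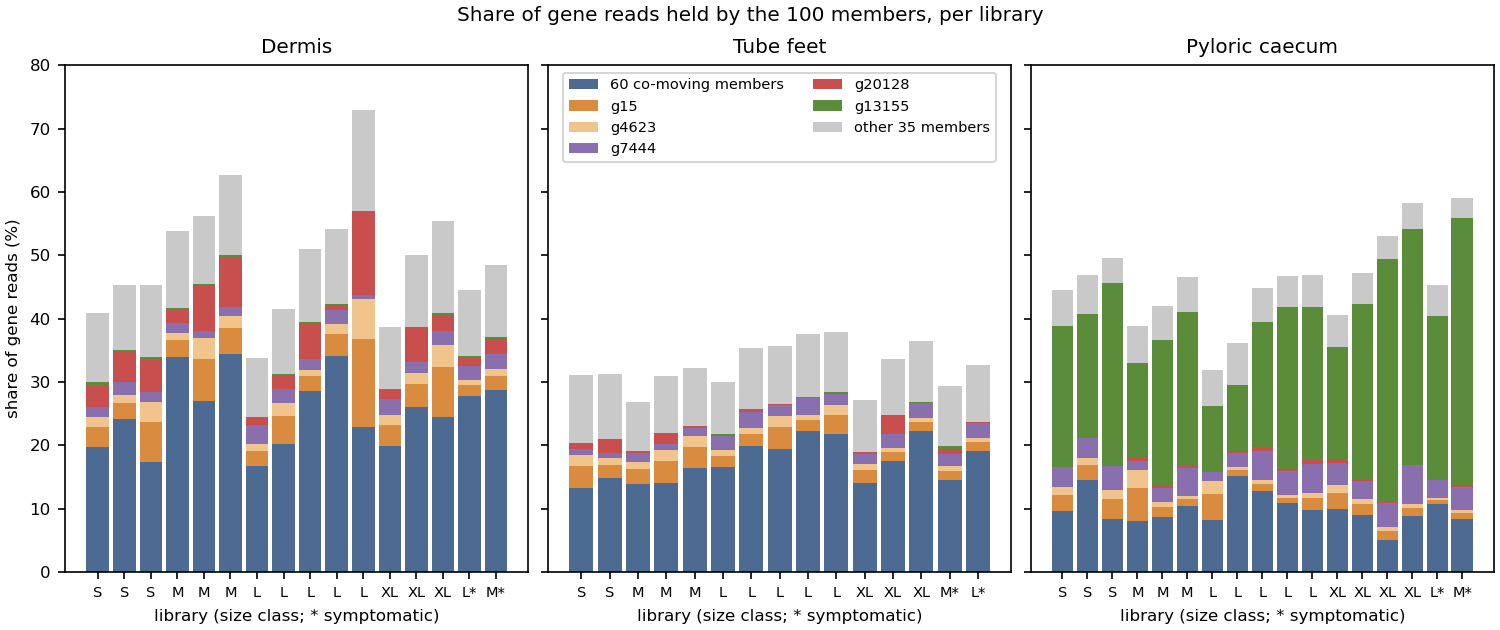
Each bar is 1 Point Reyes library, its height the percent of gene reads held by the 100 members, split into 60 members that move together between animals, 5 abundant members shown singly and the other 35. Bars are ordered by size class (S small, M medium, L large, XL x-large, * symptomatic), and g13155 holds over 50% of the member reads in 10 of the 17 pyloric caecum bars and reaches 42.3% of gene reads in the symptomatic Lifeboat House animal.

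The 3 highest ranked members stood well above the rest. g15 had mean CPM of 47650 in dermis, 24296 in tube feet and 21091 in caecum, and was by mean the most abundant gene of dermis and of tube feet. By median, g20128 stood above it in dermis, at 40654 CPM beside 35969 for g15. g7444 had means of 18224 in dermis and 17177 in tube feet and 33776 in pyloric caecum, the only member of the first 10 with its highest mean in the caecum. g4623 had means of 21992, 11843 and 10628 in the same order of tissues. The following 7 members, g3432, g14, g9623, g21595, g3227, g21297 and g19539, had lowest tissue means from 5073 CPM (g3432) down to 2932 CPM (g19539), all in pyloric caecum.

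At the threshold the ranking fell smoothly, with no gap between members and non-members. The last 3 members were g14626, g19564 and g18823, whose lowest tissue means were 586.9, 550.8 and 507.9 CPM. The first 3 genes outside were g4722, g14711 and g6167, at 501.9, 501.3 and 498.4 CPM. All 6 had their lowest mean in pyloric caecum, where the SD between animals, 401 CPM for g18823 and 252 CPM for g4722, was far larger than the steps between ranks.

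**Figure D2:**
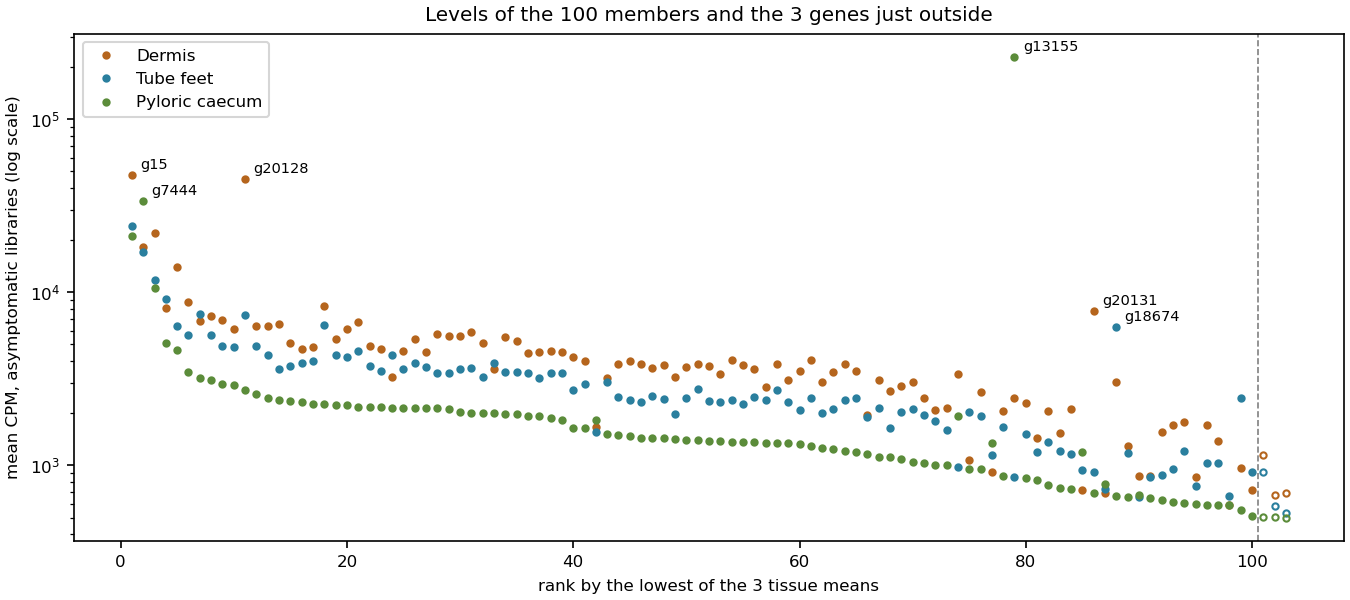
Each member has 3 points, its mean CPM over the asymptomatic libraries of each tissue (log axis), plotted against its rank by the lowest of the 3 means; open points right of the dashed line are the 3 genes just outside. Pyloric caecum forms the lower edge for 92 members, and g13155 lies at 229839 CPM in caecum against 855 in tube feet.

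Most members shared 1 tissue order. The lowest mean was in pyloric caecum for 92 members, in tube feet for 5 and in dermis for 3. The highest mean was in dermis for 85 members, in tube feet for 9 and in pyloric caecum for 6, and 83 members were ordered dermis, tube feet, pyloric caecum from high to low. The ratio of the highest to the lowest tissue mean had a median of 2.48. It was under 2 for 15 members, from 2 to under 4 for 80, and 4 or more for 5. The members kept much the same rank order in each tissue, with Spearman rho between member means of 0.87 for dermis and tube feet, 0.86 for pyloric caecum and dermis and 0.84 for pyloric caecum and tube feet, across genes that are not independent replicates.

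The order of tube feet and pyloric caecum depended on how libraries were scaled. By the ratio of mean CPM, 92 members were lower in pyloric caecum than in tube feet, with a median log2 ratio of −0.80 beside −1.08 over all genes. With TMM scaling, which sets library sizes so that most genes do not differ, 92 members were higher in pyloric caecum, with a median log2 difference of 0.28 beside −0.14 over all genes, and DESeq2 size factors put 95 higher. The other orders did not turn with the scaling. Members were lower in pyloric caecum than in dermis in 94 cases by CPM (median log2 −1.29) and in 90 by TMM (−0.81), and higher in dermis than in tube feet in 88 by CPM (0.50) and 97 by TMM (1.06).

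In the edgeR quasi-likelihood fit over the 48 Point Reyes libraries, at a false discovery rate under 0.01, 85 members were called in the comparison of pyloric caecum with dermis, 7 as higher in caecum and 78 as lower, where 39.4% of all genes tested were called. Between pyloric caecum and tube feet 14 differed, 12 higher and 2 lower in caecum, where 37.9% of all genes were called. Between dermis and tube feet 87 differed, 85 higher and 2 lower in dermis, where 29.6% were called. The choice of members used these tissue means, so nothing is read from these counts.

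The most even members were g15029, with means of 690 CPM in dermis, 732 in tube feet and 776 in caecum, g14626, with 588, 669 and 587, and g11364, with 1669, 1564 and 1820. Their ratios of highest to lowest mean were 1.12, 1.14 and 1.16. Animals differed more than tissue means in g11364, which ranged from 425 to 4507 CPM over the caecum libraries.

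The 5 uneven members were of 3 kinds. g13155 had a mean of 229839 CPM in pyloric caecum, from 102237 to 383938 over 15 libraries, beside 2454 in dermis and 855 in tube feet, a ratio of 269 between the highest and lowest mean. g20128 and g20131 were highest in dermis, at 44982 and 7775 CPM, against 2721 and 690 in pyloric caecum. g18674 was highest in tube feet, at 6317 CPM, 9.54 times its pyloric caecum mean. g19564 was also highest in tube feet, at 2448 CPM, 4.44 times its caecum mean of 551. All asymptomatic tube feet libraries of g19564 lay above every asymptomatic dermis and caecum library, from 2067 to 2891 CPM beside at most 1586 in dermis and 1154 in caecum.

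g13155 entered the list through a level in tube feet that was 0.372% of its caecum level, with dermis at 1.07%. The 15 genes of highest caecum mean outside the members were used for comparison. For 11 of the 15, taken as those under 0.3%, the tube feet mean was from 0.213% to 0.284% of the caecum mean. For these 11 the dermis mean was from 0.477% to 0.754% of it. The rest of the 15 ran from 0.454% (g20962) to 5.04% (g11911) in tube feet and from 1.07% (g11911) to 5.24% (g20962) in dermis. g13155 was above the 11, which were picked for low tube feet levels, and within the range of the 15 in both tissues. Across the 13 asymptomatic tube feet libraries the log2 CPM of g13155 correlated with that of these 15 genes with a median r of 0.71, from 0.09 to 0.89, and across the 14 dermis libraries with a median r of 0.65, from 0.49 to 0.77. The part of a shared low background of caecum transcripts in the tube feet and dermis levels of g13155 was not tested.

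Members varied less between animals than the genes ranked just after them. The median coefficient of variation of a member was 0.266 in dermis, 0.204 in tube feet and 0.294 in caecum, beside 0.381, 0.226 and 0.452 for the next 100 genes by the same rank. The steadiest were g3432, g19719 and g5404, with mean coefficients over the 3 tissues of 0.164, 0.167 and 0.178. g3432 was also among the most abundant, and its 14 dermis libraries lay between 6855 and 9781 CPM. The most variable were g20128, g18674 and g20131, at 0.879, 0.879 and 0.831. g18674 ran from 231 to 28280 CPM over the 13 tube feet libraries, with a median of 3657, and g20128 ran from 482 to 30227 with a median of 3114.

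The levels of most members were correlated with each other between animals. Each member's log2(CPM + 1) was correlated, within the asymptomatic libraries of a tissue, with the mean of the other 99. In all 3 tissues this r was over 0.7 for 60 members, called co-moving members here, and under 0 in 2 or 3 tissues for 13 members, with 27 in neither group. Of the next 100 genes by rank, treated the same way among themselves, 2 had r over 0.7 with the mean of their other 99 in all 3 tissues. Over all pairs of members the median r was 0.57 in dermis, 0.64 in tube feet and 0.67 in caecum, and over all pairs of the next 100 genes it was 0.38, 0.07 and 0.31. Under TMM-scaled CPM, chosen after seeing the data, all 60 co-moving members still qualified among 72. The counter-moving group was less stable, since 3 of its 13 members, g11364, g20131 and g19564, kept their sign under TMM scaling.

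The co-moving members took 25.0% ± 6.05 of gene reads in asymptomatic dermis, 17.4% ± 3.38 in tube feet and 9.93% ± 2.60 in caecum (SD, n = 14, 13 and 15). Their share was higher in dermis than in pyloric caecum in 14 of 14 animals and higher in dermis than in tube feet in 12 of 12. It was higher in pyloric caecum than in tube feet in 0 of 13 animals, the opposite of the share of all members, which g13155 carried in the caecum. This order, too, turned with the scaling. In the fits over 48 libraries the co-moving members' median log2 difference, caecum against tube feet, was 0.26 with TMM and 0.35 with DESeq2 size factors.

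The share of the co-moving members moved with measures of the library. Over the 14 dermis libraries it correlated with the number of gene reads at Pearson r = −0.89 and Spearman rho = −0.93, with r = −0.89 after leaving out the 2 libraries of the most extreme gene reads, and with the percent of counted lines that met no gene at r = 0.88. In tube feet and pyloric caecum the r with gene reads was −0.33 and −0.50. With the number of genes that had at least 1 read, r was −0.76 in dermis, −0.84 in tube feet and −0.18 in caecum. These are descriptions of a sum over chosen genes and carry no p, and the part of library depth or RNA quality in the co-movement was not tested.

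Some members moved as near-fixed pairs. Of 4950 pairs of members, 170 had r over 0.9 in all 3 tissues. Of these, 166 lay within the co-moving group, which was itself picked by correlation over the same libraries. The tightest pair of all was outside it: g15 and g4623 had r of 0.996 in dermis, 0.999 in tube feet and 0.993 in caecum, and the ratio of g15 to g4623 stayed between 1.79 and 2.43 over all 50 libraries. g14 and g17757 followed, with r of 0.974, 0.977 and 0.964 and a ratio between 1.49 and 2.93. Next came g20128 and g20131, with r of 0.963, 0.985 and 0.985, although their ratio ran from 2.85 to 19.8. The first and second pairs also moved with each other, with r between g15 and g14 of 0.86, 0.65 and 0.72. g7444, the other member of very high level, moved against g15, with r of −0.67, −0.62 and −0.58 in dermis, tube feet and pyloric caecum. g14 and g15, g21594 and g21595, and g20128 and g20131 carry neighbouring ID numbers, and members that are near-identical copies sharing reads cannot be told apart from separate genes here.

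**Figure D3:**
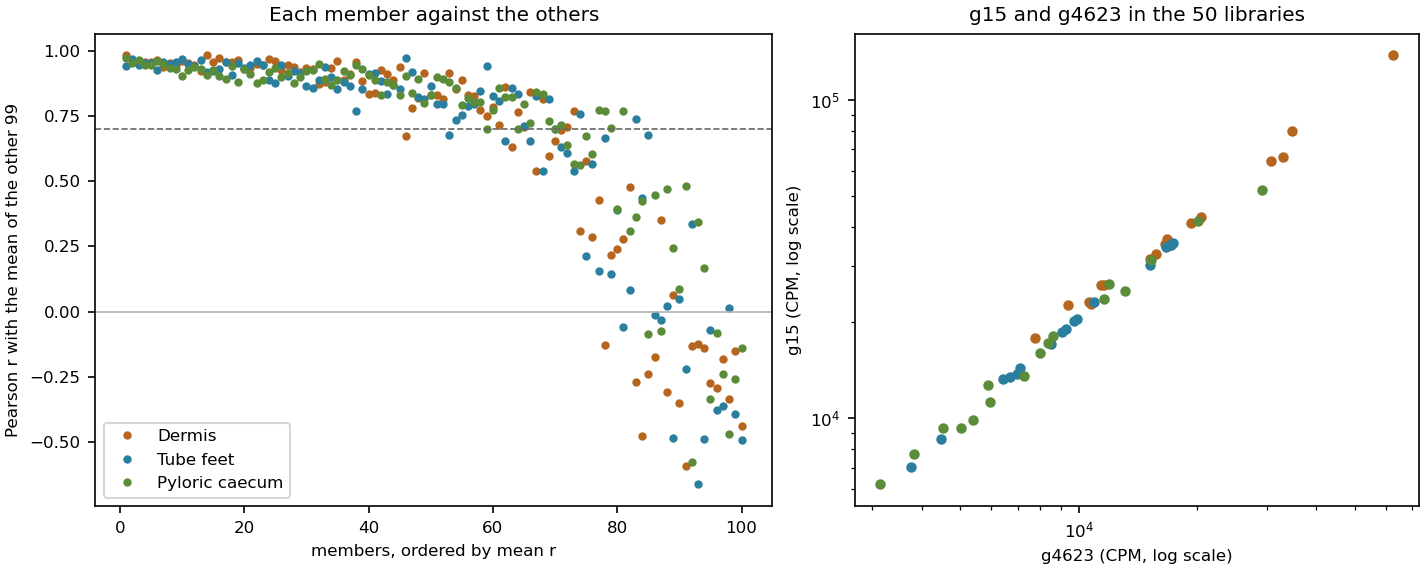
Left, Pearson r of each member's log2(CPM + 1) with the mean of the other 99 members in the asymptomatic libraries of each tissue, members ordered by their mean r; the dashed line is at 0.7, and 60 members lie above it in all 3 tissues. Right, CPM of g15 against g4623 in all 50 libraries on log axes, where the ratio stays between 1.79 and 2.43.

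The study compared size classes within each tissue in asymptomatic animals. Between small and x-large animals, edgeR called 0 of 100 members in dermis, where 0.134% of all genes were called, 0 in tube feet, where 0.145% were, and 0 in pyloric caecum, where 0.295% were. At an unadjusted p under 0.05 the counts were 0 members in dermis, 7 in tube feet (4 higher and 3 lower in small animals) and 34 in pyloric caecum (32 higher and 2 lower), beside 6.43%, 10.5% and 11.1% of all genes. The caecum count fell without some single libraries and with batch in the fit. It was 8 (4 higher and 4 lower) without small replicate 2 and 10 without x-large replicate 3. It was 15 without x-large replicate 4, 18 without small replicate 3, and 7 with batch in the fit, where 8% of all genes passed. In tube feet it ran from 2 to 11 with 1 library left out and was 18 with batch. Apart from the caecum batch fit, the share of all genes passing in these refits is not given. Their counts thus have no background beside them, and nothing is read from their changes. DESeq2 called 0 members in dermis, 2 in tube feet and 0 in caecum, where it called 0.204%, 0.697% and 1.4% of all genes.

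The fitted size differences leaned one way across most members within each tissue, and in tube feet this rested on 1 library. The median log2 fold change of small against x-large was −0.40 in dermis with 92 members below 0, −0.30 in tube feet with 85 below 0, and 0.66 in pyloric caecum with 90 above 0. Over all genes tested the medians were 0.04, 0.01 and −0.08. Without x-large replicate 2 the tube feet median was −0.04, with 60 members below 0 and 40 above. With 1 library left out the dermis median ran from −0.62 (without x-large replicate 1) to −0.23 (without x-large replicate 2), and the caecum median from 0.50 to 0.81. With batch in the fit the medians were −0.65 in dermis, −0.52 in tube feet and 0.36 in caecum. As the members move together within a tissue, these are not 100 separate observations. The members' total share of reads did not separate the classes: it was 43.9% ± 2.55 in small and 48.02% ± 8.58 in x-large animals in dermis (SD, n = 3 and 3), 31.1% ± 0.134 and 32.4% ± 4.83 in tube feet (n = 2 and 3), and 47.0% ± 2.53 and 49.8% ± 7.58 in pyloric caecum (n = 3 and 4). In each tissue every small library lay within the range of the x-large libraries. In pyloric caecum the difference of the means, small minus x-large, turned with g13155. It was −2.78 percentage points with g13155, 2.65 without it in members and gene reads, and 4.01 without it in the share.

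The tube feet members with DESeq2 calls were g7444 and g13719. g7444 was at 7915 and 9539 CPM in the 2 small animals, beside 16283, 21745 and 23266 in the 3 x-large animals, and the groups did not overlap. Its log2 fold change in edgeR was −1.22 ± 0.369 (SE; adjusted p = 0.146), and the DESeq2 adjusted p was 0.00675. Medium animals, at 8674 to 13870 CPM, lay with the small ones, and large animals, at 17837 to 26053, with the x-large ones. g13719 was at 600 and 644 CPM in the small and from 1033 to 1238 in the x-large animals (edgeR log2 fold change −0.84 ± 0.285 SE, adjusted p = 0.224; DESeq2 adjusted p = 0.00577). In the other direction, g15 and g4623 in tube feet had log2 fold changes of 0.86 and 0.85, neither past the edgeR threshold (adjusted p = 0.433 and 0.431). Among members, 3 were higher and 25 lower in small than in x-large tube feet with no overlap of CPM, where 13.6% and 13.4% of all genes tested were.

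Against the mean of the other 3 classes, edgeR called 0 members for any class in any tissue. For small, medium, large and x-large animals in that order, the shares of all genes called were 0.211%, 0.344%, 0.0211% and 0.0632% in dermis, 0.776%, 0%, 0.0132% and 0.00658% in tube feet, and 0.257%, 0%, 0% and 0.129% in pyloric caecum. At an unadjusted p under 0.05 the counts were large for 4 of these 12 contrasts. In dermis 62 members were higher in medium animals (16% of all genes passed) and 25 lower in small animals (12.7%). In pyloric caecum 47 members differed in small animals, 44 of them higher (10.1%), and in tube feet 47 differed in large animals, 44 of them higher (9.42%). The median log2 fold change of the members was 0.83, −0.75, 0.60 and 0.42 in these 4 contrasts. With batch in the fit only the tube feet count held: 6 members were higher and 1 lower in medium dermis (9.45% of all genes passed), 9 lower in small dermis (7.44%), 7 higher and 6 lower in small caecum (8.83%) and 44 higher and 1 lower in large tube feet (6.94%). The medians under batch were 0.64, −0.78, 0.39 and 0.42. These contrasts were not refitted with single libraries left out. In dermis 1 member passed at that level for large and 1 for x-large animals (5.53% and 8.02% of all genes). In tube feet 6 passed for small, 1 for medium and 4 for x-large animals (10.7%, 3.6% and 6.96%), and in pyloric caecum 1 for medium, 3 for large and 4 for x-large animals (3.89%, 6.78% and 8.82%).

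DESeq2 called 5 members higher in medium dermis, g17088, g612, g13418, g6525 and g18823, where it called 0.625% of all genes. It called g12894 and g19137 higher in small pyloric caecum (0.953% of all genes), g12894 lower in large pyloric caecum (0.121%) and g7444 higher in large tube feet (0.158%), and no member in the other 8 contrasts of this kind. In those 8 it called 0.274%, 0.0281% and 0.119% of all genes in small, large and x-large dermis, 0.836%, 0% and 0.0921% in small, medium and x-large tube feet, and 0.00756% and 0.53% in medium and x-large pyloric caecum. g12894 stood at 2732, 2939 and 3174 CPM in the caecum of the 3 small animals and between 798 and 1492 CPM in that of the 5 large animals, without overlap. g18674 gave the lowest edgeR adjusted p of any member in a size contrast, higher in small tube feet by 2.81 ± 0.635 on the log2 scale (SE; adjusted p = 0.0211), and without the filter on low counts it was called there, with an adjusted p of 0.000352. In the same way g20128 was called lower in large tube feet without the filter (log2 −2.72, adjusted p = 0.00902), and at 0.154 with it.

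The medium dermis libraries were among the shallowest, without standing apart. They had 373930, 402399 and 407057 gene reads, beside 389821 to 611964 in the other asymptomatic dermis libraries. They had from 10361 to 10939 genes with a read, beside 10403 to 14210 in the others. The co-moving members took 31.8% ± 4.19 of their gene reads (SD, n = 3), beside 20.4% ± 3.43 in small, 24.5% ± 6.85 in large and 23.5% ± 3.17 in x-large dermis. Large replicate 1, which also had few gene reads (389821), was at 34.0%, inside the medium range of 26.9% to 34.4%. The co-moving members were picked for moving together over these same libraries, so their share by size class is a description. The part of depth and of the number of genes seen in the size differences was not tested.

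**Figure D4:**
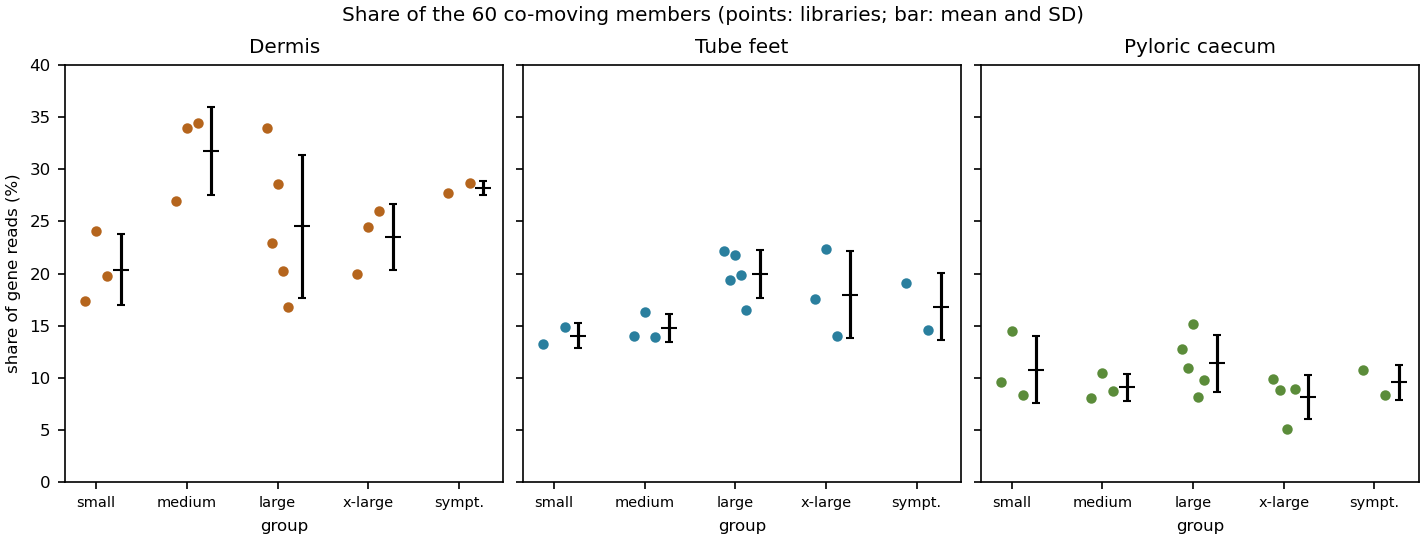
Percent of gene reads held by the 60 co-moving members in each Point Reyes library (points) with the mean and SD of each group (bar), by size class of asymptomatic animals and for the symptomatic animals. Medium dermis has the highest mean at 31.8%, and small and medium tube feet lie below large tube feet. The symptomatic libraries lie within the asymptomatic range in each tissue. The 60 members were picked for moving together over these same asymptomatic libraries, so the shares by size class are a description.

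In symptomatic animals edgeR called none of the members in any tissue. The count was 0 of 100 in dermis, where 2.27% of all genes were called, 0 in tube feet, where 0.112% were, and 0 in pyloric caecum, where 2.75% were. At an unadjusted p under 0.05 there was 1 member in dermis (lower), 6 in tube feet (5 higher and 1 lower) and 5 in pyloric caecum (all lower), beside 16%, 8.71% and 20.1% of all genes. DESeq2 called 1 member in dermis (2.66% of all genes), 2 in tube feet (0.323%) and 1 in pyloric caecum (3.95%).

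The median log2 fold change of the members was 0.05 in dermis, −0.03 in tube feet and 0.06 in caecum, beside −0.18, −0.03 and −0.15 over all genes tested. A change of less than 2-fold was fitted for 93 members in dermis, 96 in tube feet and 91 in caecum, where 61.9%, 82.3% and 62.7% of all genes had one. The genes tested go down to a mean of 1 CPM, far below the members, and no comparison with genes of like level is given. The 95% interval lay wholly within 2-fold either way for 81 members in tube feet, 52 in pyloric caecum and 6 in dermis. The dermis estimates were the least precise, with a median SE of 0.506 on the log2 scale beside 0.313 in tube feet and 0.403 in pyloric caecum.

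**Figure D5:**
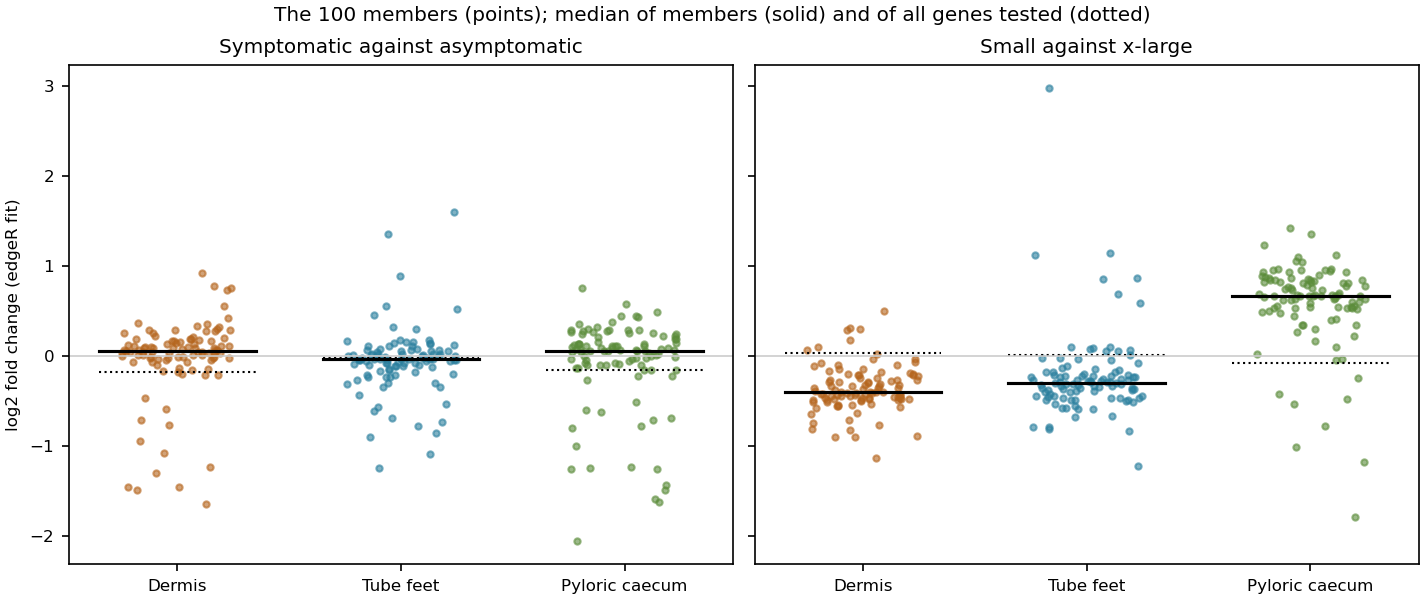
Log2 fold changes of the 100 members (points) in the edgeR fits of each tissue, for symptomatic against asymptomatic animals (left) and small against x-large asymptomatic animals (right); solid lines are member medians and dotted lines medians of all genes tested. Members centre near 0 for disease, at 0.05, −0.03 and 0.06, and away from 0 for size, at −0.40, −0.30 and 0.66, where the tube feet median is −0.04 without 1 x-large library.

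The members nearest to a disease call were g12894 in tube feet and g20128 in pyloric caecum. g12894 was at 1326 and 3703 CPM in the 2 symptomatic tube feet libraries, beside 586 to 1598 in the 13 asymptomatic ones with a median of 911, so that the lower symptomatic library lay inside the asymptomatic range. Its log2 fold change was 1.36 ± 0.294 (SE), with an edgeR adjusted p of 0.0492 and a DESeq2 adjusted p of 0.00498. This rested on 1 animal: the log2 fold change was 1.90 without the McClures Beach symptomatic library and 0.48 without the Lifeboat House one. In the Friday Harbor tube feet, g12894 was at 3438 CPM in the library labelled asymptomatic and at 1660 in the one labelled symptomatic, both above the asymptomatic Point Reyes libraries. In the other tissues g12894 stood lower in symptomatic animals, by log2 −0.77 in dermis (adjusted p = 0.478) and −1.43 in pyloric caecum (adjusted p = 0.253). The disease effect on g12894 in pyloric caecum minus that in tube feet was −2.79 ± 0.769 on the log2 scale (SE; edgeR adjusted p = 0.0905) and did not pass.

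g20128 was at 490 and 615 CPM in the 2 symptomatic pyloric caecum libraries, below all 15 asymptomatic ones, which ran from 653 to 5906 with a median of 2429. The log2 fold change was −2.06 ± 0.626 (SE; edgeR adjusted p = 0.0466, DESeq2 adjusted p = 0.00321). The lowest asymptomatic library, of a small animal, was close to the symptomatic values, and the 3 small animals had a mean of 1010 CPM. In dermis g20128 was at 11915 and 22405 CPM in the symptomatic animals, inside the asymptomatic range of 7239 to 131023, and it did not pass there (log2 −1.65, adjusted p = 0.442). Its partner g20131 gave log2 −1.62 in pyloric caecum (adjusted p = 0.123).

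The remaining DESeq2 calls were g19564, lower in dermis, and g18823, lower in tube feet. g19564 stood at 423 and 440 CPM in the symptomatic dermis libraries, beside 427 to 1586 in the asymptomatic ones, at the bottom of their range but overlapping 1 of them (log2 −1.08 ± 0.398 SE; edgeR adjusted p = 0.143, DESeq2 adjusted p = 2.07e-05). g18823 stood at 440 and 544 CPM in symptomatic tube feet, below the 13 asymptomatic libraries at 635 to 1250 (log2 −0.90 ± 0.288 SE; edgeR adjusted p = 0.301, DESeq2 adjusted p = 0.00972). In dermis its 2 symptomatic libraries were far apart, at 656 and 2272 CPM.

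Few members separated the groups without overlap of CPM. In dermis 2 were higher, g3432 and g7047, and 0 lower, where 3.35% and 1.89% of all genes were. In tube feet g7047 was higher and g18823 lower (1.76% and 1.28% of all genes). In pyloric caecum 0 were higher and g17757 and g20128 were lower (3.31% and 3.69% of all genes). g3432, the steadiest member, had a mean of 13942 ± 315 CPM in the symptomatic dermis (SD, n = 2), and both libraries lay above the 14 asymptomatic libraries, which reached 9781 (log2 0.73 ± 0.450 SE, edgeR adjusted p = 0.435). g7047 was at 5281 and 5520 CPM in symptomatic dermis beside at most 4422, and at 5760 and 6945 in symptomatic tube feet beside at most 5340 (edgeR adjusted p = 0.344 and 0.565).

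The pair g15 and g4623 stood lower in symptomatic animals in each tissue, without passing. g15 had log2 fold changes of −1.45 in dermis, −0.78 in tube feet and −1.24 in caecum (edgeR adjusted p = 0.434, 0.616 and 0.313), and g4623 had −1.49, −0.74 and −1.26 (adjusted p = 0.408, 0.637 and 0.297). The 3 tissues come from the same 2 animals and are not independent of each other. g15 in dermis was at 17880 and 23243 CPM, the first below and the second inside the asymptomatic range of 22757 to 138275.

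g13155 in tube feet followed 1 animal. It was at 533 CPM in the McClures Beach symptomatic animal and at 4759 in the Lifeboat House one, beside 493 to 1581 in asymptomatic animals, and the log2 fold change of 1.60 ± 0.440 (SE; edgeR adjusted p = 0.187) turned to −0.66 without the Lifeboat House animal (adjusted p = 0.945). In the Lifeboat House library g13155 was 5.57 times its asymptomatic tube feet mean. Of the 15 caecum-rich genes described above, 13 were at 1.11 times their own mean or less in that library, g12788 was at 2.84 times and g20962 at 36.6 times. The high level of g13155 there was thus shared by 2 of the 15 genes.

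The members' share of reads in symptomatic animals lay inside or next to the asymptomatic range. It was 44.5% and 48.4% in dermis, 32.7% and 29.3% in tube feet, and 45.2% and 59.1% in pyloric caecum, the first value of each being the McClures Beach animal. Only the caecum of the Lifeboat House animal was outside the asymptomatic range, which ended at 58.2%. The difference of the means, symptomatic minus asymptomatic, was −3.69 percentage points in dermis, −1.76 in tube feet and 7.24 in caecum, the last resting on g13155, which held 42.3% of gene reads in the caecum of the Lifeboat House animal and 25.9% in that of the other. Without the McClures Beach symptomatic library the dermis difference was −1.72 points and without the Lifeboat House one −5.67, and in tube feet these were −3.46 and −0.06. Without g13155 in the share the caecum difference was −3.89 points, and without the Lifeboat House animal 0.31 points.

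Within batches the share showed no steady disease difference. In batch 2 the symptomatic dermis library was at 44.5% beside 57.7% ± 13.6 (SD, n = 4) in asymptomatic dermis, and in batch 5 it was at 48.4% beside 41.9% ± 11.5 (n = 2), the opposite direction. In tube feet the values were 32.7% beside 33.5% ± 3.54 (n = 3) and 29.3% beside 28.6% ± 2.11 (n = 2). In pyloric caecum they were 45.2% beside 46.6% in 1 asymptomatic library and 59.1% beside 47.05% ± 0.279 (n = 2).

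Whether the disease difference itself differed between tissues was tested by interaction. edgeR called 0 members for pyloric caecum minus dermis, for tube feet minus dermis and for pyloric caecum minus tube feet, where 0.177%, 0.105% and 0.144% of all genes were called. At an unadjusted p under 0.05 the counts were 0, 2 (g12894 and g18823) and 1 (g12894) members, beside 10%, 8.78% and 9.10% of all genes.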

How the data were processed

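RNA sequencing libraries of 3 tissues were made with Qiagen RNeasy Mini extraction and Illumina TruSeq RNA v2 preparation, per the labels' protocols. Reads were trimmed with Trim Galore 0.4.4, aligned with TopHat2 2.0.13 and handled with SAMtools 0.1.19, per the submitters' processing notes; the read counter, strandedness, reference build and gene models are not stated in the sources used here, so reads of overlapping or near-identical genes could be shared or lost. The deposited files hold raw whole-number counts for 21777 genes and 5 summary lines, which were dropped from library sizes. Lines that met no gene were 81.2% to 88.4% of all counted lines in asymptomatic dermis, 78.3% to 81.1% in tube feet and 71.0% to 78.8% in caecum. No 2 libraries held identical counts.

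CPM was the count divided by the gene reads of its library, times 1e+06. Tests used edgeR 4.0.16 (quasi-likelihood, TMM, mean CPM of at least 1, Benjamini-Hochberg false discovery rate under 0.01 over all genes tested) in R 4.3.3, per tissue for size and disease and over 48 libraries for tissue and interaction, as the series' design text sets out; DESeq2 1.42.0 was an alternative. The fits were tested on simulated data. Animals, named in the labels, pair libraries across tissues, and a fit with the animal as a replicate block was an alternative. Other alternatives were scaling, filter, batch, site, the reference animals, leaving out g13155 and leaving out libraries. Genes named in the text were the 10 highest ranked members, ranks 98 to 103, the most and least even, the most and least variable and the most abundant per tissue. Members called by DESeq2 or by an alternative, members without overlap, the closest pairs and the caecum-rich genes were chosen after their values were seen. The members and lists were chosen with earlier results of these data known.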

Additional observations from a re-analysis of the deposited data

Results flagged for a closer look

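In groups of 4 to 10 libraries, a sample standing far from the rest was looked for over 100 groups of named members, and chance flags about 1 in 20 groups. Among large dermis libraries, 1 animal (replicate 2) stood apart in g15 at 138275 CPM beside 22757 to 42898 in the others, in g4623 at 62626 CPM beside 9379 to 20357, and in g14 at 54344 CPM beside 7620 to 11410. The members took 72.9% of its gene reads, the highest of any library. Another large dermis library (replicate 1) stood apart in g21595, at 8201 CPM beside 5201 to 5849.

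Large tube feet replicate 4 stood apart in g20128, at 4504 CPM beside 482 to 1165, and in g20131, at 772 CPM beside 65.6 to 160. The caecum of the same animal stood apart in g18823, at 1616 CPM beside 277 to 575. Among x-large caecum libraries replicate 3 was low in g21297, at 1555 CPM beside 2962 to 3078, and in g19539, at 1423 CPM beside 2767 to 2936, and its g13155 share was 38.4%, the highest asymptomatic value. x-large caecum replicate 1 was high in g18674, at 1205 CPM beside 407 to 529.

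The Friday Harbor tube feet, which entered no comparison, held 3 members above the range of the asymptomatic Point Reyes tube feet. g13155 was at 3411 CPM in the library labelled asymptomatic, beside at most 1581. g11364 was at 3528 CPM in that library and at 2885 CPM in the one labelled symptomatic, beside at most 2316. g12894 was at 3438 CPM in the library labelled asymptomatic and at 1660 CPM in the one labelled symptomatic, beside at most 1598.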

How the results depend on the processing

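Of 194 alternative values computed, 168 kept their direction and side of the threshold or moved by less than the replicate spread. The members' share changed with its definition. Over all counted lines it was 7.18% in dermis, 6.51% in tube feet and 11.3% in caecum, which put caecum above dermis. With 50 members it was 37.9%, 24.0% and 17.0%, with 200 members 39.2% in tube feet, and without g13155 28.5% in pyloric caecum. The disease difference in the caecum share turned from 7.24 to −0.94 percentage points without g13155 in members and gene reads and to −3.89 without it in the share, and ran from 0.31 to 14.2 points when 1 symptomatic library was left out. The disease log2 fold change of g13155 in tube feet turned to −0.66 with McClures Beach animals only, which leaves out both Lifeboat House animals, and to −0.66 without the symptomatic Lifeboat House library alone.

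DESeq2 called members that edgeR did not: for disease 1 in dermis, 2 in tube feet and 1 in caecum, and for small against x-large 2 in tube feet. Against the other classes it also called the members named above in medium dermis, small and large caecum and large tube feet. The cause was not tested. In tube feet without the McClures Beach symptomatic animal, which leaves 1 symptomatic library, the log2 fold change was 1.90 for g12894 and 2.44 for g13155. Without the Lifeboat House symptomatic library instead, it was 0.48 for g12894 and −0.66 for g13155. With members chosen on symptomatic libraries as well, g5459 replaced g18823 and gave a caecum disease count of 1; since g5459 entered through the symptomatic libraries in the choice and was then tested on them, nothing is read from this count. With the animal as a replicate block 76 members were called between caecum and dermis, where 39.7% of all genes were. Between caecum and tube feet 12 were called (38.8% of all genes), and between dermis and tube feet 87 (30.7%). The interactions gave 0 members. Their shares of all genes called were 0.269% for caecum minus dermis, 0.315% for tube feet minus dermis and 0.249% for caecum minus tube feet. The block was fitted for these contrasts only. Leaving out large dermis replicate 2, chosen after seeing the data, gave 0 disease calls in dermis. The symptomatic group holds 2 animals and the small group 2 or 3 libraries a tissue, which limits the precision of these fits.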

Other observations

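In the 2 Friday Harbor tube feet libraries, from 1 animal, the members took 31.4% of gene reads under the asymptomatic label and 28.0% under the symptomatic label, within the Point Reyes tube feet range of 26.8% to 37.9%. In the library labelled symptomatic 31 members stood higher and 69 lower than in the other, with a median log2 difference of −0.08, and 4 members were past 2-fold either way. In that labelled asymptomatic, 3 members lay above and 11 below the asymptomatic Point Reyes range, and in the other 2 above and 10 below. In the library labelled asymptomatic g13155 was at 3.99 times its Point Reyes tube feet mean. The caecum-rich gene g20962 was at 21.2 times its own mean there. Both were also high in the tube feet of the symptomatic Lifeboat House animal. Most of the 15 caecum-rich genes were not raised in that Friday Harbor library. Their median was 0.68 times their own mean, from 0.15 to 21.2, with g12788 at 2.96.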
